A study of Mus musculus with 8 samples.

Results

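RXR binding was examined at the genes of the cyclin and cyclin-dependent kinase (Cdk) machinery in hearts of newborn mice. All protein-coding genes of the RefSeq table for mm10 were taken whose symbol begins with Ccna, Ccnb, Ccnd, Ccne, Ccng, Cdk or E2f and a digit, or with Cdkn or Cdc25. This gave 60 of 21887 genes, of which 10 carry such a symbol without being a cyclin, a Cdk, a Cdk inhibitor, a Cdc25 phosphatase or an E2f factor. A peak was counted for a gene when its summit, the position of highest signal, lay within 10 kb of either gene end, and 83 of the 23961 peaks of all hearts met this rule.

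The peaks came from chromatin immunoprecipitation and sequencing (ChIP-seq) with an RXR antibody on whole hearts at postnatal day 0. The edKO hearts came from newborns that lack Rxra and Rxrb in cardiomyocytes (RXRab-/-) and were compared with wild-type (WT) hearts. Each genotype had 2 hearts, numbered 3 and 4, each a biological replicate with its own immunoprecipitate, input and peak list. The tissue was the total heart, so the other cells of the edKO hearts keep their RXR genes, and the sources used here do not name the transgene that drives the deletion. Fewer cells with binding and less binding per cell cannot be told apart in such samples.

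Cyclins activate Cdks, and the D and E types act with their kinases before DNA synthesis, where they phosphorylate the retinoblastoma protein and free the E2f transcription factors. The Cip/Kip and INK4 proteins inhibit Cdks, and Cdc25 phosphatases remove phosphates that hold Cdks inactive. Mouse cardiomyocytes leave the cell cycle soon after birth. RXR is a nuclear receptor that binds DNA in pairs with other nuclear receptors, commonly at repeats of the hexamer AGGTCA.

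The upstream sequences of 4 members are shown because the summit of WT replicate 3, in a region shared by both WT hearts, lay there. These are Cdkn2c and Cdkn2d, which encode INK4 inhibitors, Cdkn2aip, which encodes a protein that binds the Arf tumour suppressor, and Cdc25a, which encodes a Cdc25 phosphatase. Each is the 250 bases before a start of the gene in RefSeq (GRCm38.p6), 5′ to 3′ on the strand of the gene. Capitals mark the 11 bases centred on the summit of WT replicate 3, at base 91 in Cdkn2c, 19 in Cdkn2d, 47 in Cdkn2aip and 64 in Cdc25a. In Cdc25a they also mark TGACCT, the hexamer AGGTCA read on the other strand, at bases 77 to 82. The windows are chr4:109666757-109667006 (minus strand) for Cdkn2c, chr9:21291210-21291459 (minus strand) for Cdkn2d, chr8:47713932-47714181 (minus strand) for Cdkn2aip and chr9:109875329-109875578 (plus strand) for Cdc25a.
Cdkn2c: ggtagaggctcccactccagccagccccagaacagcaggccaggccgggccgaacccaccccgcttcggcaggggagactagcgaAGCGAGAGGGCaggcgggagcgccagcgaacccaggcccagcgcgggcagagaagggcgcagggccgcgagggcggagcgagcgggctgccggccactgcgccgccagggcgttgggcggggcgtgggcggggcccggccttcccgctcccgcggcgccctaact
Cdkn2d: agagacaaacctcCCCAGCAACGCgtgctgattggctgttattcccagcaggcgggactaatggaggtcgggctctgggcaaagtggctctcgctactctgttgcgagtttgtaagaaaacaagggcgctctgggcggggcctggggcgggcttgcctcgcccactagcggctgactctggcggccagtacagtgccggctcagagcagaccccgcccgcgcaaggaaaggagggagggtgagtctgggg
Cdkn2aip: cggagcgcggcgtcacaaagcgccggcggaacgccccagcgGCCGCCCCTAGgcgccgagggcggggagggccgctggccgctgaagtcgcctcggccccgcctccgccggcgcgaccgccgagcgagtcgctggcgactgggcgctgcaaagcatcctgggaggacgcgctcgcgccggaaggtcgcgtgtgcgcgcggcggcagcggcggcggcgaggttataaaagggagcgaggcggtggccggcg
Cdc25a: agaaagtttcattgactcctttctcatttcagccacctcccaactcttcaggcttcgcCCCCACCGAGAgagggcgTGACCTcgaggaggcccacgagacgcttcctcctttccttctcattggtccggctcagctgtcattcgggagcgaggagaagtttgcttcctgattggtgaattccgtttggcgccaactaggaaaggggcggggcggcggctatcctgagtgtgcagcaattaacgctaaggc

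In Cdc25a 12 bases lay between the summit base of WT replicate 3 and the hexamer, and the summit of WT replicate 4 was 8 bp from that of WT replicate 3. In Cdkn2d the summit of WT replicate 4 was 70 bp away, outside the window. The windows of Cdkn2c, Cdkn2d and Cdkn2aip held no AGGTCA on either strand. G and C made up 77.2% of the window in Cdkn2c, 63.6% in Cdkn2d and 78.0% in Cdkn2aip, against 56.4% in Cdc25a. Over promoter sequences of 300 bases the median was 62.8% in members and 56.3% in all genes. It was 64.7% in all promoters with a summit of WT replicate 3. Promoter sequences of 300 bases, with 50 bases past the start, were at hand for 48 of the 60 members (56 promoters, since some genes have several starts). Of these, 8 held AGGTCA on either strand (14.3%), and the share over all 21263 promoters of protein-coding genes was 14.7%. Direct repeats of AGGTCA with any 1 base (DR1) or any 4 bases (DR4) between the copies were searched on both strands with up to 2 mismatches in the copies. They were found in 0 member promoters, while 3.32% of all promoters held DR1 and 2.65% held DR4; both contain AGGTCA where they match exactly. A summit of WT replicate 3 lay in 13 of the 56 member promoters (23.2%), against 13.9% of all promoters, and a summit of WT replicate 4 in 5 (8.93%), against 4.36%. Of the 13, 2 held AGGTCA (15.4%), namely Cdc25a and Cdk4, the gene of a kinase that partners D cyclins, against 16.0% of the 2954 promoters of all genes with such a summit.

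The comparison of genotypes asks how far RXR peaks at these genes depend on Rxra and Rxrb in cardiomyocytes. No peak of either edKO heart lay within 10 kb of an end of any of the 60 genes. WT replicate 3 had 62 such peaks at 37 genes, and WT replicate 4 had 21 at 15 genes. The mean was 0 ± 0 peaks in edKO hearts and 41.5 ± 29.0 in WT hearts (SD, n = 2 each), a difference of -41.5, and both edKO hearts lay below both WT hearts. The two-sided exact permutation test over hearts gave p = 0.333, the smallest that 2 against 2 hearts allow. Without WT replicate 3 the difference was -21. The lowest local background of a list, which grows with sequencing depth, was 3.11 and 2.96 fragments per position in edKO replicates 3 and 4. It was 2.48 and 2.32 in WT replicates 3 and 4. A lowest value depends on how many peaks it is taken over, here 8 and 127 in edKO against 19129 and 4697 in WT. These values therefore cannot compare depth between the genotypes, and an effect of depth was not tested.

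The edKO lists were short throughout (8 peaks in replicate 3 and 127 in replicate 4, against 19129 and 4697 in WT replicates 3 and 4), so few genes of any kind had an edKO peak. Over all protein-coding genes, 0.0548% had a peak in edKO replicate 3, against 0.58% in edKO replicate 4, and 0 of 60 members lies near these shares. At regions shared by the WT hearts, edKO peaks lay mostly above the range of WT enrichment of the member regions. The strongest member region set the top of that range, so no member region could lie above it. The mean fold enrichment of the WT hearts was 4.14 to 14.5 in the 18 shared regions at members. Within that range 3749 regions were shared by the WT hearts, and 1 of them (0.0267%) had a peak in edKO replicate 3 while 8 (0.213%) did in edKO replicate 4. Above the range lay 530 regions, of which 7 (1.32%) had a peak in edKO replicate 3, and edKO replicate 4 had one in 117 (22.1%). The edKO peak nearest to a member lay 38.1 kb from Cdk5r2, which encodes an activator of Cdk5, at chr1:74816725-74817094 in edKO replicate 4, nearest to Wnt10a. Cdk5r2 itself had no peak within 10 kb in any heart.

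**Figure D1:**
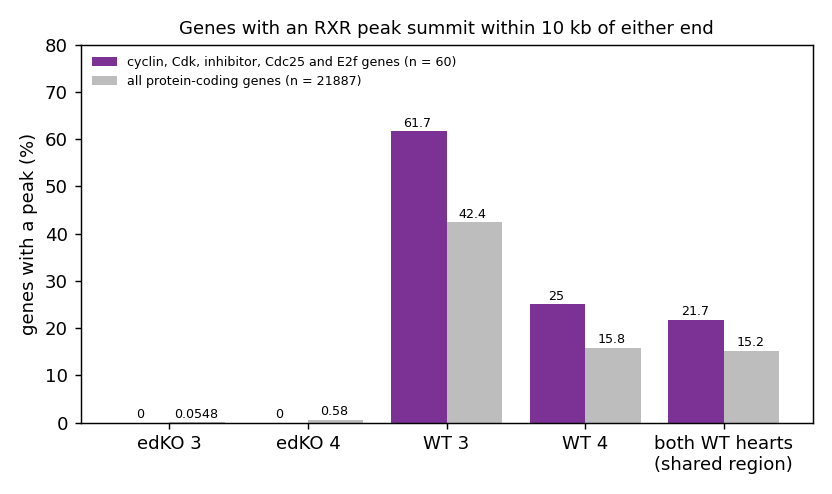
Share of genes (%) with a peak summit within 10 kb of either end, for the 60 genes with a cyclin, Cdk, inhibitor, Cdc25 or E2f symbol (purple) and for all protein-coding genes (grey), in each heart and for regions shared by both WT hearts. Of the 60, 10 carry such a symbol without belonging to these families. The share of members is 0 in edKO 3 and edKO 4, 61.7% in WT 3 and 25.0% in WT 4.

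In the WT hearts the members were near peaks in numbers above the share of all genes, a description with no test. In WT replicate 3, 37 of 60 members had a peak (61.7%), and 42.4% of all protein-coding genes did. In WT replicate 4, 15 of 60 had a peak (25.0%), against 15.8% of all genes. Peaks of both hearts that overlapped by at least 1 bp were taken as a shared region. There were 18 such regions at 13 members, or 21.7% (interval 12.1 to 34.2%). Of all genes 15.2% had one, a share inside that interval. With the peaks of WT replicate 3 alone (without WT replicate 4) the count is 37, and without WT replicate 3 it is 15. Of the remaining members, 23 had a peak in WT replicate 3 alone (38.3%, against 26.9% of all genes), the heart with the longer list. Cdkn1a had peaks in WT replicate 4 alone, a class that held 0.32% of all genes, and Cdk11b had peaks in both hearts and no shared region, as 0.379% of all genes did. No peak was listed for 22 members (36.7%), against 57.3% of all genes.

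Enrichment at the members was moderate. Fold enrichment here is the authors' ratio of the signal at the summit to the local background of the same heart, and it ranks peaks within a list. The 62 member peaks of WT replicate 3 ranged from 2.90 to 16.2 with a median of 5.69, and the median of all peaks within 10 kb of a gene end was 5.45. The 21 member peaks of WT replicate 4 ranged from 4.12 to 16.0 with a median of 5.81, against 5.84 for all such peaks. Fragments at the summit, recovered from the deposited statistics, numbered 12 to 90 in WT replicate 3 and 15 to 65 in WT replicate 4 at the members. In the shared regions fold enrichment was higher in WT replicate 3 than in WT replicate 4 in 15 of 18 cases, and in 82.7% of all 4342 shared regions. The Poisson intervals of the fragments at the summit lay apart between the hearts in 3 of the 18 regions, the stronger one of Ccnd1 and those of Cdk5 and Cdk17. This was 16.7% of the member regions, and the share over the 4334 shared regions with fragments recovered in both hearts was 22.2%.

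**Figure D2:**
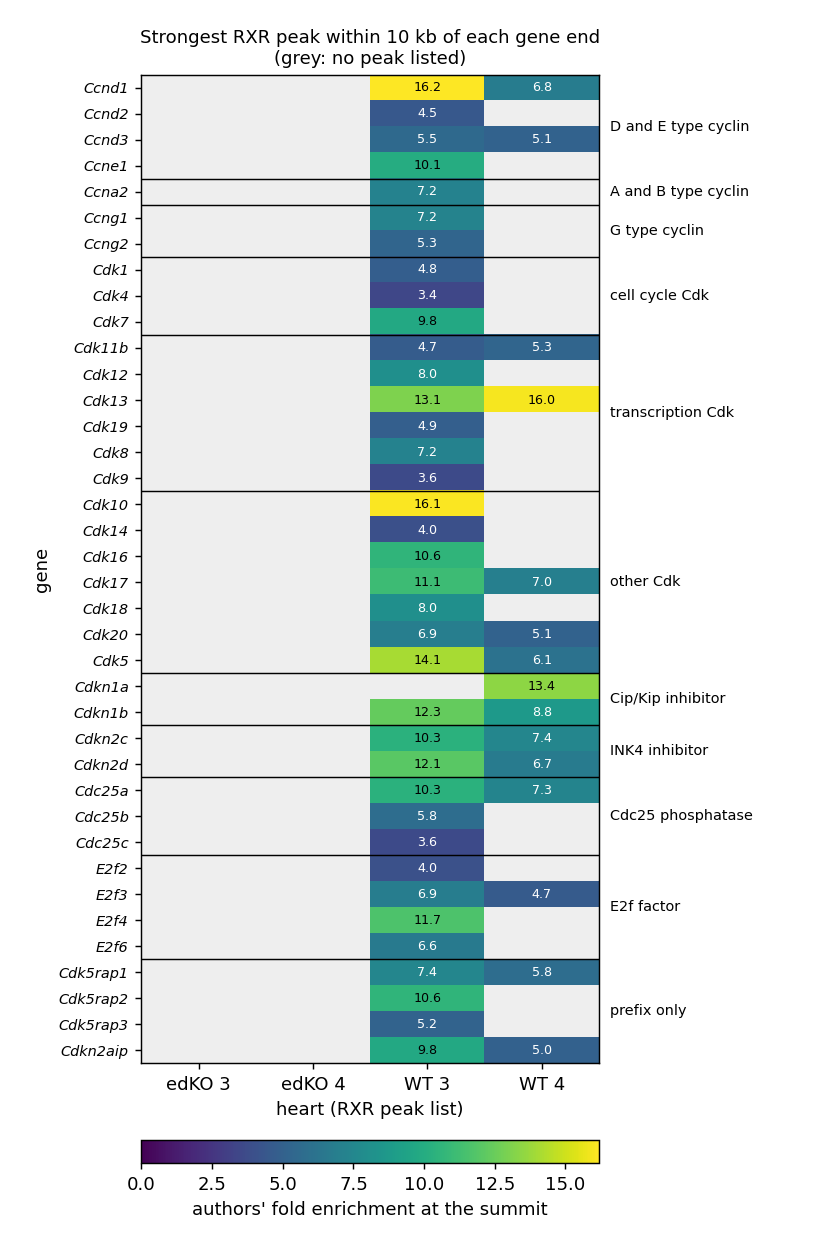
Fold enrichment of the strongest peak within 10 kb of either end of the 38 members with a peak, by role (rows) and heart (columns); grey means that no peak was listed. Both edKO columns are grey throughout, Ccnd1 has the highest value in WT 3 (16.2), Cdk13 the highest in WT 4 (16.0), and Cdkn1a is grey in WT 3.

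Among the D and E type cyclin genes, Ccnd1 and Ccnd3 had shared regions. Ccnd1, which encodes the cyclin D1 that answers growth signals, had the strongest member peak of WT replicate 3 (chr7:144943038-144943748), with the summit 3673 bp from the gene's end and outside it. Its fold enrichment was 16.2 in WT replicate 3, from 90 fragments (95% Poisson interval 72.4 to 111), and 6.77 in WT replicate 4, from 41 fragments (29.4 to 55.6). The intervals do not overlap. This gap had the direction seen in nearly all shared regions with intervals apart, where WT replicate 3 was higher at 958 of 961. Whether sequencing depth sets that direction was not tested. A second shared region of Ccnd1, at chr7:144941524-144941984 and 1904 bp outside the gene, went the other way, with 4.28 in WT replicate 3 and 6.19 in WT replicate 4, and its fragment intervals overlapped (17.8 to 39.3 and 13.8 to 33.3). Ccnd3, which encodes cyclin D3, had its regions inside the gene, at chr17:47508035-47508443 (3.20 and 5.08 in WT replicates 3 and 4) and from 47510987 to 47511555 (5.54 and 4.63). Both were among the weakest member regions. Ccne1 (10.1), which encodes cyclin E1, and Ccnd2 (4.46), which encodes cyclin D2, had a peak in WT replicate 3 alone, 4779 bp outside and 267 bp inside the gene.

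Of the 5 genes of A and B type cyclins, which act in DNA synthesis and mitosis, Ccna2 alone had a peak. It was in WT replicate 3, where 42.4% of all genes had a peak, with a fold enrichment of 7.16 and the summit 802 bp inside the gene. Both G type cyclin genes had peaks in WT replicate 3, where 42.4% of all genes had one, and none in WT replicate 4. Ccng1, a target of p53, had 1 (7.24) and Ccng2 had 3, between 3.71 and 5.30.

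Of the 5 genes of cell cycle Cdks, none had a shared region, and 15.2% of all genes had one. Cdk7, which encodes the kinase that activates other Cdks and acts in transcription factor TFIIH, had a peak of 9.76 in WT replicate 3, 24 bp outside the gene. Cdk1, the gene of the mitotic kinase, had peaks of 4.84 and 3.62 in that heart, and Cdk4 had 1 of 3.45, from 12 fragments. Cdk2 and Cdk6 had no peak within 10 kb of an end.

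All 6 genes of transcription Cdks had a peak in WT replicate 3, the heart where 42.4% of all genes had one. Cdk13 had the shared member region with the highest mean fold enrichment of both hearts (14.5). Cdk13 encodes a kinase of the RNA polymerase II tail. The region, chr13:17804913-17805906, had its summit 340 bp outside the gene. Fold enrichment was 13.1 in WT replicate 3, from 70 fragments (54.6 to 88.4), and 16.0 in WT replicate 4, from 65 fragments (50.2 to 82.9), and the intervals overlap. These values stood at percentiles 92.7 and 96.3 of the lists of WT replicates 3 and 4. Cdk12, the gene of the related kinase, had a peak of 8.04 in WT replicate 3 alone, 245 bp inside the gene. Cdk8 and Cdk19, which encode kinases of the Mediator complex, had peaks of up to 7.18 and of 4.88 in WT replicate 3. The stronger Cdk8 peak lay inside the neighbouring gene Rnf6. At Cdk11b the peak of WT replicate 4 (5.26) lay 70 bp outside the gene, at chr4:155624653-155624852, and the peaks of WT replicate 3 (4.68 and 3.73) lay past the opposite end and inside Mmp23.

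The remaining Cdk genes had 3 shared regions among 8 genes, and 15.2% of all genes had a shared region. The region counted for Cdk5, which encodes a kinase best known in neurons, was chr5:24425557-24426064, at 2237 bp from Cdk5 and inside Slc4a2, the gene of an anion exchanger. Fold enrichment there was 14.1 in WT replicate 3 against 6.13 in WT replicate 4, from 52 (38.8 to 68.2) and 20 (12.2 to 30.9) fragments. Cdk17 had its region 1101 bp inside the gene at chr10:93161700-93162145, with 11.1 and 7.01, and Cdk20 had one 451 bp inside at chr13:64432421-64432890, with 6.93 and 5.08. The fragment intervals of WT replicates 3 and 4 did not overlap at Cdk5 (52 against 20) or Cdk17 (51 against 23). Cdk10 had a peak of 16.1 in WT replicate 3 and none in WT replicate 4, but its summit lay 9220 bp outside and inside Spata33. Cdk16 (10.6) also had a peak in WT replicate 3 alone, 1031 bp inside the gene, and the peaks of Cdk14 and Cdk18 were weaker (3.98 and 8.04).

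Among the inhibitor genes, Cdkn1b, Cdkn2c and Cdkn2d had shared regions, and Cdkn1a had peaks in WT replicate 4. Cdkn1b encodes the Cip/Kip inhibitor p27. Its region (chr6:134928324-134928852) was 3136 bp away, past the end opposite to its start. The region had 12.3 in WT replicate 3 and 8.75 in WT replicate 4, from 42 (30.3 to 56.8) and 29 (19.4 to 41.7) fragments, intervals that overlap. WT replicate 3 alone had further peaks before the start of Cdkn1b, at 156 bp (6.32) and at 3027 bp (4.38).

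Cdkn2c, which encodes the INK4 inhibitor p18, was the member with the most shared regions, 3 in all. The region before its start (chr4:109666746-109667198, the window printed above) had 8.61 in WT replicate 3 and 5.48 in WT replicate 4. Another lay past the opposite end from 109657223 to 109657943 (10.3 and 5.08). The last lay from 109676244 to 109676857 (8.21 and 7.40), 9758 bp from Cdkn2c but 113 bp from Faf1, a gene of apoptotic signalling. In all 3 the fragment intervals of the hearts overlapped. Cdkn2d, which encodes the INK4 inhibitor p19, had a region at each end. That before its start, at chr9:21291105-21291802, had 12.1 in WT replicate 3 and 6.71 in WT replicate 4, and the other, from 21287822 to 21288333, had 7.75 and 4.12 and lay 104 bp from the neighbouring gene Kri1. Cdkn2a and Cdkn2b, the INK4 genes that share a locus, had no peak in any heart, nor did the Cip/Kip gene Cdkn1c.

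**Figure D3:**
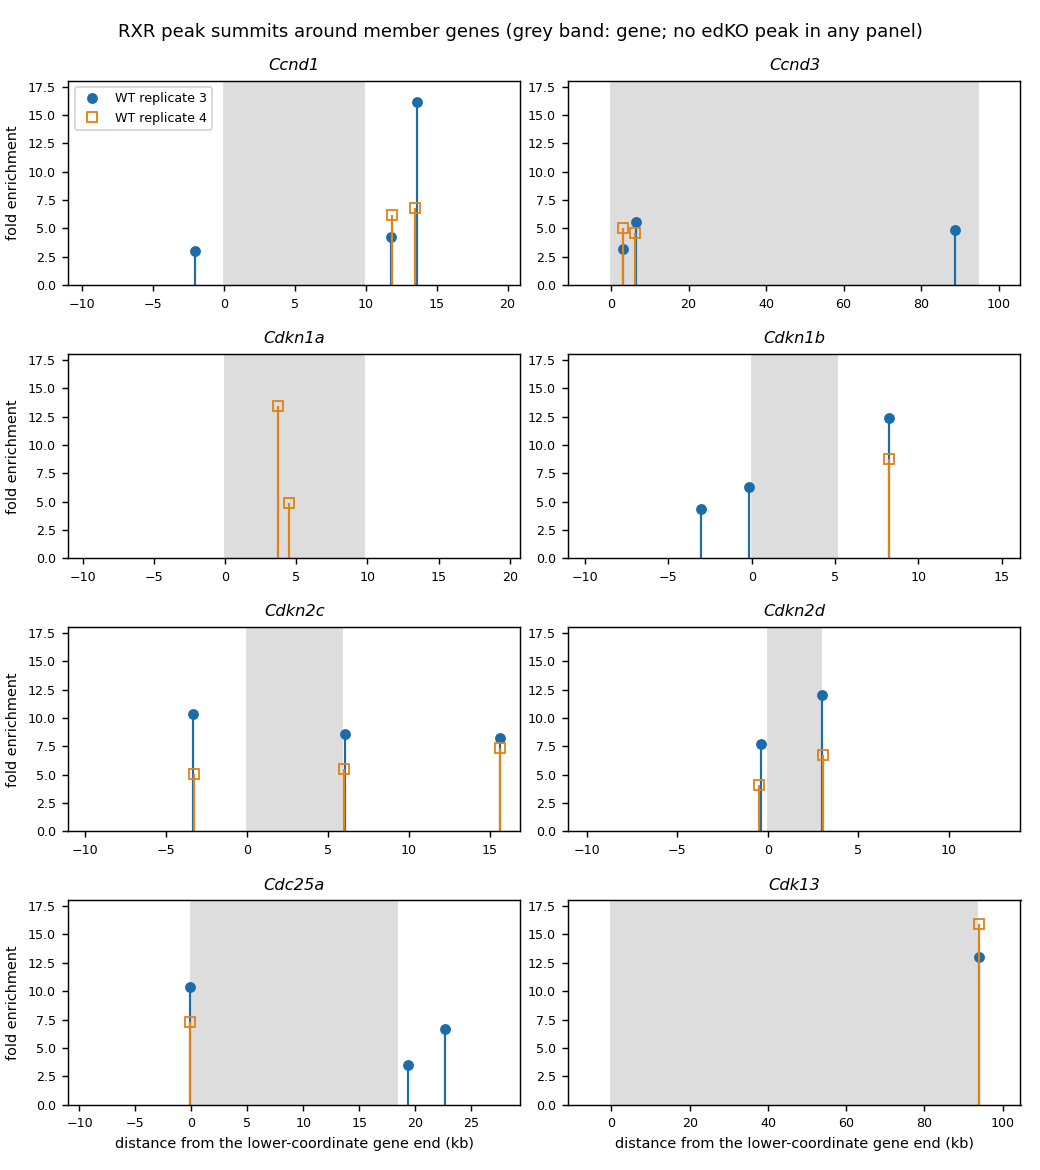
Summit positions (kb from the lower-coordinate gene end; the gene is the grey band) and fold enrichment of all peaks within 10 kb of either end of 8 members, in WT replicate 3 (blue) and WT replicate 4 (orange). Cdkn2c has 3 pairs of peaks and Cdkn2d has 2, while the 2 Cdkn1a peaks belong to WT replicate 4 alone.

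Cdkn1a, which encodes the Cip/Kip inhibitor p21, a target of p53, had peaks in WT replicate 4 and none in WT replicate 3. The stronger had a fold enrichment of 13.4 at chr17:29094441-29094981, 3712 bp inside the gene and 922 bp past the nearest start in the promoter table, from 45 fragments (32.8 to 60.2). A weaker one (4.84, 19 fragments) followed from 29095307 to 29095557. WT replicate 3 had no peak in or within 10 kb of the gene, although its list was longer and its weakest peak held 11 fragments. Of the 263 peaks of WT replicate 4 that overlapped none of WT replicate 3, the Cdkn1a peak had the highest fold enrichment, followed by 9.63. The next region along the chromosome, 35.8 kb from Cdkn1a and nearest to Rab44, was present in both, with 16.8 in WT replicate 3 and 8.46 in WT replicate 4. With 1 heart of each kind, the difference at Cdkn1a has no replicate check.

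**Figure D4:**
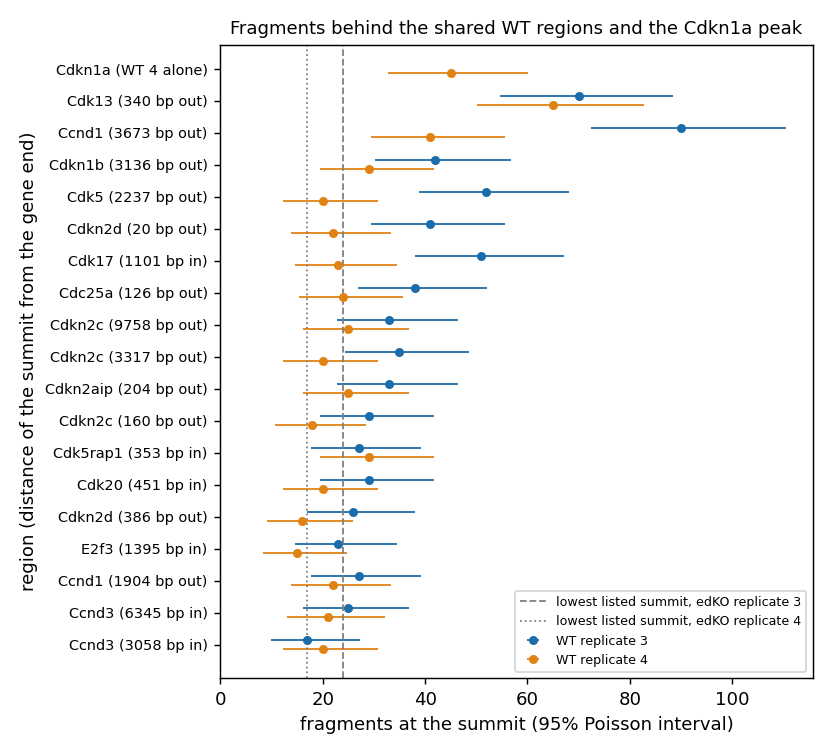
Fragments at the summit with 95% Poisson intervals for the 18 shared regions and for the Cdkn1a peak, in WT replicate 3 (blue) and WT replicate 4 (orange). The vertical lines mark the lowest number among the 8 peaks of edKO replicate 3 (24) and the 127 of edKO replicate 4 (17). They need not be detection limits. The hearts lie together at Cdk13 (70 and 65) and apart at the stronger Ccnd1 region (90 and 41).

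Of the Cdc25 phosphatase genes, Cdc25a had a shared region, as 15.2% of all genes did. All 3 had a peak in WT replicate 3, where 42.4% of all genes had one. Cdc25a acts at entry into DNA synthesis and into mitosis. Its region, at chr9:109875233-109875582, had 10.3 in WT replicate 3, from 38 fragments (26.9 to 52.2), and 7.30 in WT replicate 4, from 24 (15.4 to 35.7), intervals that overlap. WT replicate 3 alone had further Cdc25a peaks of 6.63 and 3.51, with summits 4262 and 951 bp outside the gene. The peaks of Cdc25b (5.81 and 5.57) were more than 6 kb from the gene, the weaker one 146 bp from Cenpb. The peak of Cdc25c (3.62) lay inside Fam53c.

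Of 8 E2f genes, 4 had a peak in WT replicate 3, where 42.4% of all genes had one. E2f3 alone had a shared region, and 15.2% of all genes had one. E2f3 encodes an activating E2f factor. Its region, at chr13:29984348-29985013, had 6.89 in WT replicate 3 and 4.67 in WT replicate 4, and lay 1395 bp inside the gene, at -278 bp from an internal start. WT replicate 3 alone had another E2f3 peak of 6.89, with the summit 310 bp outside the gene. E2f4, which encodes a factor that acts mainly as a repressor, had a peak of 11.7 from 43 fragments in WT replicate 3, 71 bp inside the gene, and none in WT replicate 4. E2f6 (6.60) and E2f2 (4.05) also had a peak in WT replicate 3 alone. E2f1, E2f5, E2f7 and E2f8 had none.

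Of the 10 genes with such a symbol that belong to none of these families, 2 had a shared region, against 15.2% of all genes. Cdkn2aip had 9.76 in WT replicate 3 and 5.03 in WT replicate 4, at chr8:47713826-47714794. Cdk5rap1, which encodes an enzyme that modifies transfer RNA, had 7.42 and 5.81, at chr2:154372521-154372815, and lay 34 bp past its start. Cdk5rap2, the gene of a centrosome protein, had 10.6 and Cdk5rap3 had 5.17 in WT replicate 3 alone. The members with no peak within 10 kb of an end in any heart were Ccna1, Ccnb1, Ccnb2, Ccnb3, Ccne2, Cdk2, Cdk6, Cdk15, Cdkn1c, Cdkn2a, Cdkn2b, Cdkn3, E2f1, E2f5, E2f7, E2f8, Ccnb1ip1, Cdk2ap1, Cdk2ap2, Cdk5r1, Cdk5r2 and Cdkn2aipnl.

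The position of summits relative to gene ends is a description with no test. Within 1 kb of the end were 32 of the 62 summits of WT replicate 3 (51.6%), against 43.7% of all gene and peak pairs within 10 kb, and 10 of the 21 of WT replicate 4 (47.6%), against 47.8%. Of the 18 shared member regions, 8 had their summit within 1 kb (44.4%), against 48.1% of all pairs of a gene and a shared region. Inside the gene were 35.5% in WT replicate 3 and 38.1% in WT replicate 4, against 41.4% and 41.5% of all pairs. The summits of the hearts in a shared member region were 60 bp apart at the median and at most 270 bp.

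**Figure D5:**
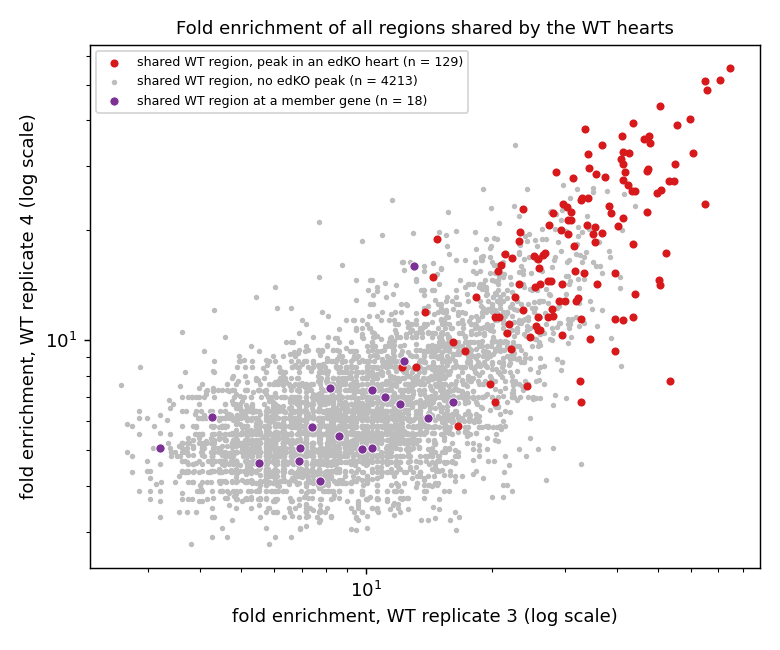
Fold enrichment (log scales) of all 4342 regions shared by the WT hearts, in WT replicate 3 (x axis) and WT replicate 4 (y axis), with the 129 that had a peak in an edKO heart in red and the 18 regions at members in purple. The member regions lie in the body of the cloud, and the red points lie mainly at higher fold enrichment.

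Among the members 21.7% had a shared region, and among 42 other listed genes of the cell cycle 11 did (26.2%), against 15.2% of all protein-coding genes. Of the 42, 0 had a peak in an edKO heart, and 0.0548% and 0.58% of all genes did in edKO replicates 3 and 4. The strongest region of the 42 genes was at Gadd45a, a gene induced by DNA damage. It lay 13 bp outside the gene at chr6:67036968-67037717, with 24.2 in WT replicate 3 and 10.3 in WT replicate 4. Others were at Mcm7, which encodes a subunit of the replicative helicase (14.6 and 5.81), and Cks1b, which encodes a Cdk-binding subunit (12.4 and 6.39). The region counted for Cks1b was nearest to Shc1, and those counted for Gadd45b, Mcm2 and Ccnt1 were also nearest to another gene. Wee1, the gene of a kinase that opposes Cdc25, had 13.8 and 4.01, and Rb1, which encodes the retinoblastoma protein, had 10.0 and 4.65. Peak lists hold no transcript levels, so neither the tissue label nor the deletion can be checked by expression. As a description, 4 of 5 cardiomyocyte marker genes, 2 of 5 endothelial, 1 of 5 fibroblast and 2 of 5 blood marker genes had a shared region. Over all genes the share was 15.2%. A peak in edKO replicate 4 was listed within 10 kb of 2 of the 5 cardiomyocyte markers and of 0 of the others. Over all genes that share was 0.58%, and 0 of 5 lies near it. None of the marker genes had a peak in edKO replicate 3, where 0.0548% of all genes had one.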

How the data were processed

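Per the submitters' processing notes, cutadapt, BWA, SAMtools and MACS3 were used on mm10 (GRCm38); the sources used here give no versions or settings. Per the labels, 1 narrowPeak list belongs to the immunoprecipitate and input of each heart, so peaks were called per heart. The authors deposited for each peak a fold enrichment, a −log10 p, a −log10 q and a whole-number score (10 times the −log10 q, not used). Coordinates are printed 1-based.

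Genes came from RefSeq GRCm38.p6 (21887 nuclear protein-coding of 49997 entries), which gives no strand; starts and strands came from the RefSeq promoter table. A WT replicate 4 peak was joined to its strongest overlapping WT replicate 3 peak, whose summit placed the region. Fragments and local background were solved from fold (pseudocount 1) and the Poisson −log10 p; whole numbers came out within 0.005 of the deposited −log10 p for 99.96% of WT replicate 3 peaks (8 with −log10 p above 314 were not solved) and 100% of the other lists. The immunoprecipitate was scaled to its input by 0.967 in WT replicate 4 and 0.992 in edKO replicate 3. The lowest local background was 3.11 and 2.96 fragments per position in edKO replicates 3 and 4, and 2.48 and 2.32 in WT replicates 3 and 4. Poisson intervals cover counting error only, not variation between hearts. Duplicate removal is not stated, and duplicates that were kept would make the intervals too narrow.

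Named were members with a shared region or an edKO peak, and the 4 highest folds of each role in a WT heart; Cdk9, Cdk14, Cdk18 and members with no peak fell outside it, and Cdk14 and Cdk18 were added after their values were seen. Some weaker peaks of WT replicate 3 at named members are not printed. Cdc25 symbols were counted by prefix. Members and lists were chosen with earlier results of these data known. Numbers of peaks were compared over hearts by an exact permutation test; gene counts carry no test. The labels do not say that a heart's number marks a litter or day, so hearts were unpaired. Scripts were tested on simulated data. Python 3.11.15, pandas 2.3.3, NumPy 2.4.6, SciPy 1.17.1 and matplotlib 3.10.9 were used. No genome sequence was used, so windows around summits were not searched and promoter windows took their place.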

Additional observations from a re-analysis of the deposited data

How the results depend on the processing

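The difference in peaks near members, edKO minus WT, was -21 at a distance of 1 kb and -98 at 50 kb. It was -26.5 with peaks of −log10 p of at least 10, -32.5 with −log10 q of at least 5 and -38 without the Cdc25 genes. Since both edKO hearts had 0 peaks within 10 kb, the difference could have turned positive in the 50 kb run alone. Leaving out each heart gave -62 to -21. With hearts of the same number paired (replicate block) it was -41.5, with an exact sign-flip p = 0.5, the smallest for 2 pairs. With both edKO hearts at 0 a correlation of same-numbered hearts cannot be computed, and crossed numbers, added after seeing the data, gave the same value.

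The 13 members with a shared region became 7 at 1 kb (8.38% of all genes) and 28 at 50 kb (31.9%). Leaving out each WT heart gave 15 to 37. Under the other alternatives it was 9 to 13, the lowest with an overlap of at least 50% of each peak (11.5% of all genes), and Cdk5 was lost when a peak counted for the nearest gene alone. The members with a peak in WT replicate 4 became 9 at 1 kb (8.77% of all genes) and 29 at 50 kb (33.0%). Those of WT replicate 3 ranged from 26 at 1 kb (27.1% of all genes) to 53 at 50 kb (63.8%). In edKO replicate 4, 2 peaks lay within 50 kb of a member (near Cdk5r2 and Cdk5), against 0 within 10 kb, and edKO replicate 3 stayed at 0. These edKO alternatives were added after seeing the data. The median fold of the strongest shared region per member was 8.82, and 8.87 with the strongest peak of each heart.

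The edKO lists had higher lower ends than the WT lists, at 24 fragments in edKO replicate 3 and 17 in edKO replicate 4. Of the 62 member peaks of WT replicate 3, 29 and 47 reached these numbers, and of the 21 of WT replicate 4, 8 and 19 did. By the lowest −log10 p of the edKO lists (9.53 and 6.03), 39 and 55 of the 62 and 16 and 21 of the 21 did. A lowest value depends on how many peaks it is taken over, here 8 and 127 in edKO against 19129 and 4697 in WT. The lowest −log10 q was 3.532 in edKO replicate 3, against 1.366 to 1.565 in the other lists. The lower ends therefore need not be detection limits, and whether sequencing depth sets them was not tested.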

Other observations

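Inside members but more than 10 kb from both ends lay 6 further peaks of WT replicate 3 and none of the other hearts. They were outside the rule and were named after their values were seen. Cdk14, the gene of a kinase related to Cdk5, held 2 of them, with fold enrichments of 5.96 (27 fragments) and 4.39 (18 fragments). Cdk15 (6.89), Cdk5rap2 (6.32), Cdk6 (4.88) and Ccnd3 (4.24) held 1 each. Cdk6, which encodes a partner of D cyclins, and Cdk15 had no peak within 10 kb of an end, so these were their sole peaks in any heart.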
